A study of Mus musculus with 24 samples.

Results

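Expression of 10 chemokine genes, Ccl2, Ccl5, Ccl6, Ccl9, Cxcl1, Cxcl9, Cxcl10, Cxcl12, Cxcl16 and Cx3cl1, was examined in hepatocyte preparations from aged mouse livers. The genes were chosen by name and are 10 of the 55421 genes in the count and FPKM tables. All 24 mice were C57BL/6J, and every mouse had been on vehicle or drug since 4 months of age. At 18 months, ND+veh mice (n = 8) stayed on normal diet with vehicle, HFD+veh mice (n = 7) were given vehicle on a diet in which fat supplied 60% of the calories, and HFD+eRapa mice (n = 9) were moved to that diet with encapsulated rapamycin at 42 ppm, each for 9 weeks. Rapamycin inhibits the kinase mTOR, and a group kept on normal diet with the drug was not analysed here. The drug effect is therefore measured here in mice on the high-fat diet. Hepatocytes were obtained by perfusing the liver in 2 steps and were then washed by repeated low-speed spins and passed through a Percoll gradient, steps that reduce the number of smaller liver cells, and the polyadenylated RNA of each preparation was sequenced as a bulk sample.

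Chemokines are small secreted proteins that bind G protein-coupled receptors on leukocytes and direct their movement along a gradient. They are grouped by the spacing of the first cysteines of the mature protein: adjacent in CC chemokines, separated by a single residue in CXC chemokines and by a short spacer in CX3C chemokines. In the liver they are made by resident macrophages (Kupffer cells), endothelial cells, stellate cells and hepatocytes, and they are known for recruiting monocytes, T cells and neutrophils during steatosis and injury.

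The cysteine spacing that gives each family its name is shown by the coding sequence around it, read from the Gencode M21 transcripts of GRCm38 and written with the cysteine codons in capitals. Each stretch lies within a single coding exon.
Ccl2, chr11:82036491-82036526, plus strand: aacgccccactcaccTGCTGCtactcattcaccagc
Ccl5, chr11:83529227-83529262, minus strand: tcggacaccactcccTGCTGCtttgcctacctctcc
Ccl6, chr11:83589371-83589406, minus strand: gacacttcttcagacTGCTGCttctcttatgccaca
Ccl9, chr11:83575911-83575946, minus strand: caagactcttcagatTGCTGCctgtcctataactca
Cxcl1, chr5:90891481-90891519, plus strand: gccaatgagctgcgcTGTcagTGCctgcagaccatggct
Cxcl9, chr5:92326827-92326865, minus strand: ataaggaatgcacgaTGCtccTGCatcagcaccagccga
Cxcl10, chr5:92348166-92348204, minus strand: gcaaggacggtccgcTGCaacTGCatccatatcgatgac
Cxcl12, chr6:117171493-117171531, plus strand: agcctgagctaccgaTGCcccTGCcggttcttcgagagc
Cxcl16, chr11:70459112-70459150, minus strand: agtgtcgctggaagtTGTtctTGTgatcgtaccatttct
Cx3cl1, chr8:94778036-94778080, plus strand: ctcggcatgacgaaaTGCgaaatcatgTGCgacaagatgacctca
The 4 CC genes carry 2 cysteine codons side by side, the 5 CXC genes have 1 codon between them, and Cx3cl1 has 3. In the translated reading frames Cxcl16, with 246 residues, and Cx3cl1, with 395, were longer than the other members, which had 91 to 148. Cxcl16 and Cx3cl1 are the members made as membrane-bound proteins, from which the soluble ligand is shed.

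The 10 genes lie on 4 chromosomes. Ccl5, Ccl9 and Ccl6 form a run on chromosome 11, with gaps of 42.4 kb between Ccl5 and Ccl9 and 9.2 kb between Ccl9 and Ccl6 and no other protein-coding gene inside either gap. Cxcl9 and Cxcl10 sit 18.6 kb apart on chromosome 5, again with 0 protein-coding genes between them. Exons of Cxcl10 (chr5:92346638-92348889, minus strand) share 133 of 2252 bases with Art3 on the plus strand, and exons of Cxcl16 (chr11:70453983-70459984, minus strand) share 552 of 3021 bases with Zmynd15 on the plus strand. Whether the counting used strand is not stated, so reads from those shared bases cannot be assigned to either gene. The exons of the other 8 members share no base with another annotated gene.

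Promoters from RefSeq (GRCm38.p6, 250 bases before to 50 after the gene start) were found for 7 members, namely Ccl6, Ccl9, Cxcl1, Cxcl9, Cxcl10, Cxcl12 and Cx3cl1. The sequences of Cxcl9, Cxcl10 and Cxcl1 are shown because the first pair are neighbours that are classical targets of interferon, whereas Cxcl1 is a classical target of NF-kB and had a different pattern over the groups. Capitals mark matches to any of the motifs searched.
Cxcl9, chr5:92328030-92328329, minus strand: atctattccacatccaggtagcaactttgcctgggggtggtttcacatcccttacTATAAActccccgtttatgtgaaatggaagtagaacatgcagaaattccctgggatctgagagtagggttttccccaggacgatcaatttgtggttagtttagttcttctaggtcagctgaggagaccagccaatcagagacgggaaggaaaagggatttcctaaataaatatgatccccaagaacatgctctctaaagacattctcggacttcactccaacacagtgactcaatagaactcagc
Cxcl10, chr5:92348840-92349139, minus strand: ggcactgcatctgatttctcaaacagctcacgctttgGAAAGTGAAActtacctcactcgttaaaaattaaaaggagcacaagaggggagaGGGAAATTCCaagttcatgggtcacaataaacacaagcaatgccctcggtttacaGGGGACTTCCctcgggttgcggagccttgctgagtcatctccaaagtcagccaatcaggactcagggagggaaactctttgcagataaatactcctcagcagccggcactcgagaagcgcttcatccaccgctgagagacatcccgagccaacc
Cxcl1, chr5:90890995-90891294, plus strand: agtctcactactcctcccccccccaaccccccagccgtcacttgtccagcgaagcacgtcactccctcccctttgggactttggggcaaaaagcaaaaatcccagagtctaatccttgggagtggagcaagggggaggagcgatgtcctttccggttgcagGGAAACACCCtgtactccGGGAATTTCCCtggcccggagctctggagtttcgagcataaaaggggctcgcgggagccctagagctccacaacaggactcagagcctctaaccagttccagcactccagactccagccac
An NF-kB type motif (GGG and TTCC separated by any 3 bases, either strand) was present in the windows of Cxcl1, Cxcl10 and Ccl9, and in 5.56% of all 32851 promoters of the table. An interferon-stimulated response element type motif (2 copies of GAAA separated by any 2 bases, either strand) was found in Cxcl10 among the 7 members and in 3.44% of all promoters. The letters TATAAA, searched only on the gene's own strand, were found in Cxcl9, Ccl9 and Cx3cl1 and in 8.32% of all promoters. The gamma-activated site type motif TTCNNNGAA was in 0 of the 7 member windows and in 8.3% of all promoters, which says only that these letters are not in those windows. In Cxcl1 the NF-kB type matches at positions -71 and -70 from the start lie on opposite strands and overlap.

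Libraries held 17.7 to 25.9 M counts (M, 1000000). Of the 55421 genes, 13847 passed the filter on low counts and were tested. Transcripts of the 8 hepatocyte markers examined, among them Alb and Ttr, summed to 58894 to 182593 counts per M (CPM) in every library. These sums show hepatocyte RNA in every library but do not measure how pure the preparations were. Markers of other liver cells were also present, and their levels are given beside the results. Within its group, HFD+veh replicate 6 had the lowest mean correlation with the other libraries (Pearson r = 0.883 on log2 CPM over the tested genes), and in ND+veh the lowest values were 0.939 in replicate 8 and 0.944 in replicate 4.

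All 10 chemokines were detected. Cxcl9, Cxcl10, Cxcl1, Cxcl12, Ccl6, Ccl9 and Cxcl16 had counts in all 24 libraries, and Ccl2 and Ccl5 in 23 of 24. Cx3cl1 had at least 1 count in 21 libraries but at least 10 in only 3, with 112 counts in total, and was the member that did not pass the filter, which left 9 members tested. At such counts the absence of a difference in Cx3cl1 cannot be told from too little depth.

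Levels between genes were compared as FPKM, which accounts for transcript length. By the median over 24 libraries the order was Cxcl12 at 73.5 FPKM, Ccl9 at 16.8, Cxcl1 at 9.79, Ccl6 at 6.71, Cxcl10 at 3.69, Cxcl9 at 3.20, Cxcl16 at 2.59, Ccl5 at 1.56, Ccl2 at 1.04 and Cx3cl1 at 0.040. Cxcl12 was above Ccl9 in 22 of 24 libraries, Ccl9 above Cxcl1 in 20, and Ccl2 above Cx3cl1 in 23. The neighbours between these were less separated, with the higher-ranked gene on top in 11 of 24 libraries for Cxcl16 and Ccl5 and in 15 to 17 libraries for the other pairs, so their order changed from mouse to mouse. In HFD+veh mice the median of Ccl6, 44.6 FPKM, was exceeded only by Cxcl12 at 61.9 FPKM, whereas in ND+veh, at 3.76 FPKM, Ccl6 stood below Cxcl12, Ccl9, Cxcl1 and Cxcl10.

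**Figure D1:**
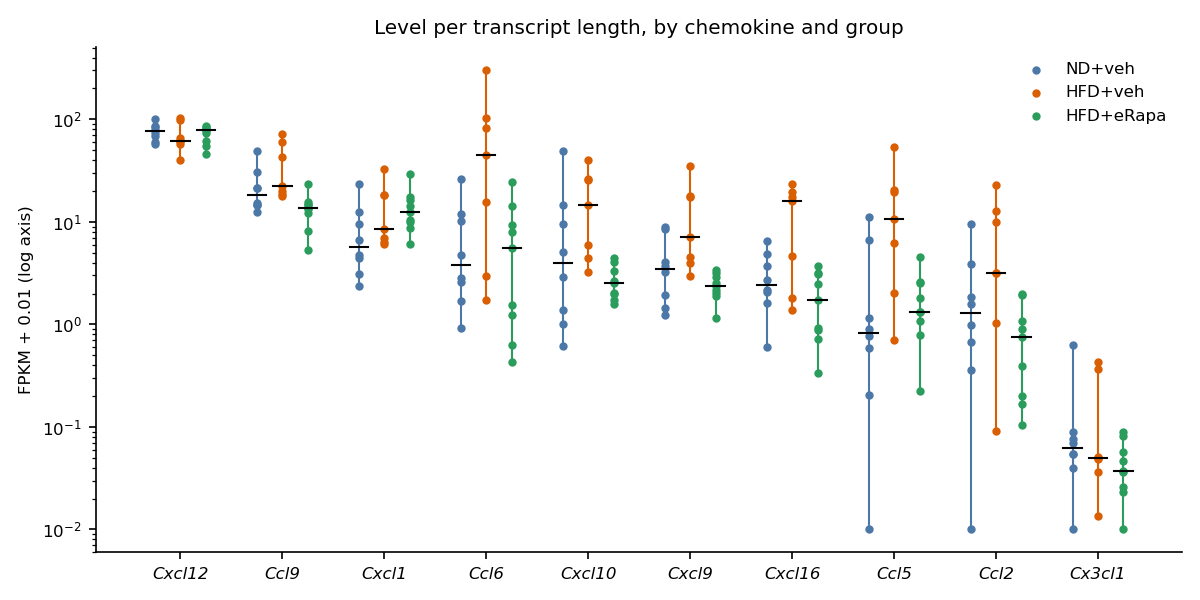
FPKM of the 10 chemokines (vertical axis, FPKM + 0.01, log axis), ordered by the median over 24 libraries; points are mice, vertical lines the range and black bars the group median. Cxcl12 spans 40.3 to 103 FPKM over all groups, whereas Ccl6 runs from 0.419 to 303 FPKM.

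Between HFD+veh and ND+veh mice, Ccl5, Ccl6, Cxcl9 and Cxcl16 rose, 4 of the 9 chemokines tested, and 0 fell. Over all tested genes 16.0% were called higher and 9.86% lower in this comparison (edgeR quasi-likelihood test, Benjamini-Hochberg adjusted p under 0.05, termed called below). The median log2 fold change of the 9 members was 1.56, beside 0.05 over all genes. Between HFD+eRapa and HFD+veh mice, 7 of the 9 fell, namely Ccl2, Ccl5, Ccl6, Ccl9, Cxcl9, Cxcl10 and Cxcl16, and 0 rose, with 21.1% of all tested genes called lower and 10.9% higher. The members' median was -2.43, beside -0.04 over all genes. Between HFD+eRapa and ND+veh mice edgeR called 0 of 9, with 1 (Cxcl10) at an unadjusted p under 0.05, 1 called by DESeq2 and 0 by limma voom, and 6.93% of all genes were called higher and 6.56% lower. The comparisons share groups of mice and are therefore not independent of each other.

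**Figure D2:**
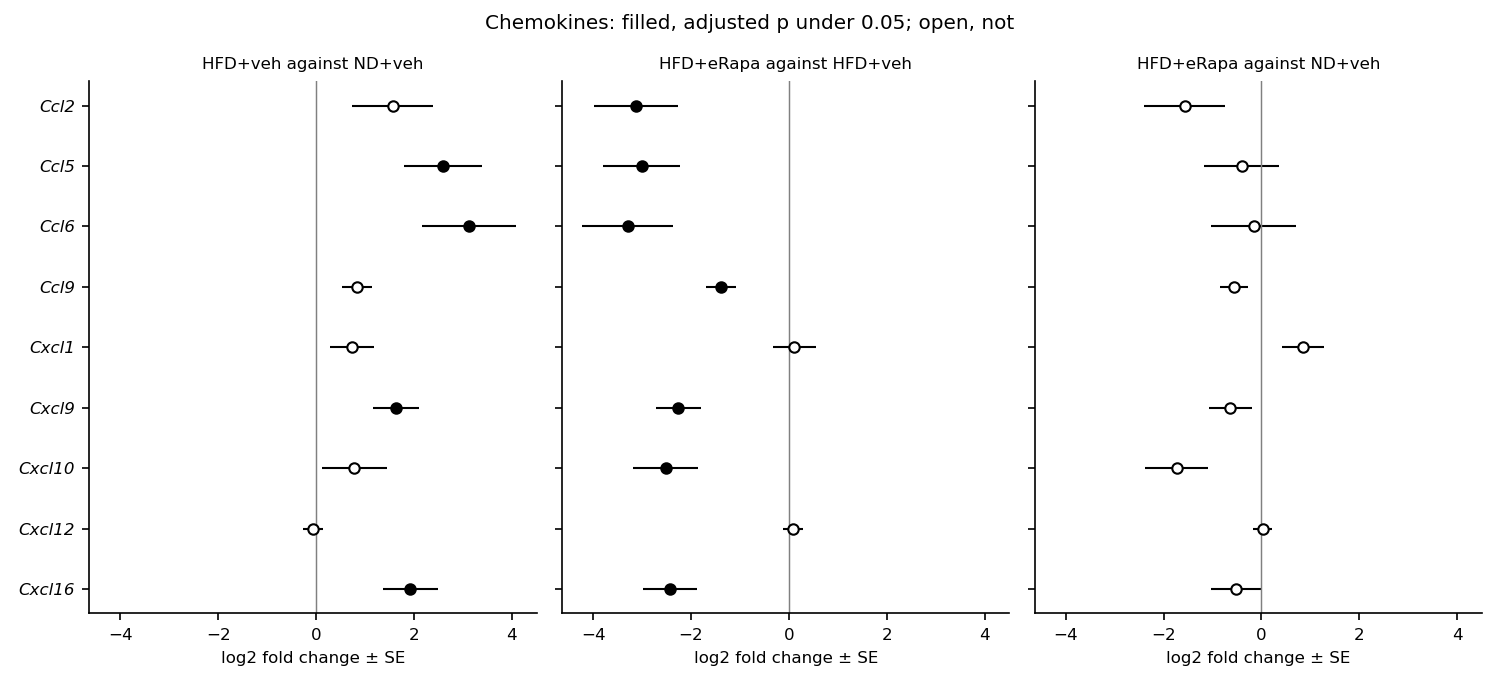
Log2 fold change with its SE from edgeR for the 9 chemokines tested in each comparison; filled points have an adjusted p under 0.05. The 7 filled points of HFD+eRapa against HFD+veh lie between -3.29 and -1.39, with Cxcl1 at 0.11 and Cxcl12 at 0.09.

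Ccl2, Ccl6 and Ccl9 attract monocytes and macrophages. Ccl2 (MCP-1), the main ligand of the monocyte receptor Ccr2, ranged from 0 to 7.06 CPM in ND+veh with a median of 0.825, from 0.088 to 13.1 in HFD+veh with a median of 2.14, and from 0.056 to 1.40 in HFD+eRapa with a median of 0.452. The groups overlapped, but all 9 HFD+eRapa mice were below the HFD+veh median. Ccl2 fell by 3.13 ± 0.86 on the log2 scale with eRapa (± SE here and below, adjusted p = 0.00853), a level 0.115 times that of HFD+veh. For the diet the difference, 1.56 ± 0.84, was not called (adjusted p = 0.168), and 5 of 7 HFD+veh mice were above the ND+veh median. Without ND+veh replicate 8, which had the highest Ccl2 of its group, that difference was 2.54 with an adjusted p of 0.0248, and without HFD+veh replicate 6 it was 0.98 (adjusted p = 0.455).

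Ccl6, a CC chemokine of macrophages and other myeloid cells that binds Ccr1, had the widest range. It was at 1.13 to 32.8 CPM in ND+veh (median 4.39), 3.08 to 292 CPM in HFD+veh (median 49.6) and 0.307 to 28.7 CPM in HFD+eRapa (median 6.00). In HFD+veh the lowest mice, replicates 1, 2 and 7, lay within the ND+veh range, while replicates 3, 4 and 6 were at 80.6 CPM or more. Ccl6 rose by 3.13 ± 0.96 with the diet (adjusted p = 0.0219) and fell by 3.29 ± 0.93 with eRapa (adjusted p = 0.00970). Without HFD+veh replicate 6 these were 2.22 (adjusted p = 0.0957) and -2.37 (adjusted p = 0.0548), so both calls were lost.

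Ccl9, the neighbour of Ccl6 on chromosome 11 and likewise a ligand of Ccr1, was more abundant and less variable. It ranged from 27.5 to 80.3 CPM in ND+veh with a median of 44.4, from 37.5 to 199 CPM in HFD+veh with a median of 58.3, and from 15.8 to 51.4 CPM in HFD+eRapa with a median of 34.6. Every HFD+eRapa mouse was under the HFD+veh median. Ccl9 fell by 1.39 ± 0.30 with eRapa (adjusted p = 0.00212). The diet difference of 0.83 ± 0.31 missed the threshold at an adjusted p of 0.0510, and it passed in 6 of the 15 fits that left out 1 library, those without HFD+veh replicate 1, 2, 5 or 7 or without ND+veh replicate 4 or 8 (adjusted p from 0.0196 to 0.0452). It was 0.45 without HFD+veh replicate 6 (adjusted p = 0.273).

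Ccl5 (RANTES) is a product of T cells, NK cells and macrophages and a ligand of Ccr1 and Ccr3. Its CPM ran from 0 to 2.77 in ND+veh (median 0.242), from 0.208 to 14.0 in HFD+veh (median 3.10) and from 0.105 to 1.20 in HFD+eRapa (median 0.432). In HFD+veh, 6 of 7 mice exceeded the ND+veh median. Ccl5 rose by 2.60 ± 0.80 with the diet (adjusted p = 0.0215) and fell by 3.004 ± 0.78 with eRapa (adjusted p = 0.00616). Without HFD+veh replicate 6 the rise was 1.93 with an adjusted p of 0.0883, and the fall was 2.33 on the log2 scale and stayed called.

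Cxcl9 and Cxcl10 are induced by interferon and attract T and NK cells through Cxcr3. Cxcl9 was at 3.52 to 27.1 CPM in ND+veh (median 10.2), 8.50 to 102 CPM in HFD+veh (median 23.6) and 3.54 to 11.8 CPM in HFD+eRapa (median 7.17). The eRapa mice were tightly grouped, with an SD of 2.50 CPM beside 33.0 CPM in HFD+veh. Cxcl9 rose by 1.62 ± 0.47 with the diet (adjusted p = 0.0171), a call lost without HFD+veh replicate 6 (1.07, adjusted p = 0.0898), and fell by 2.26 ± 0.46 with eRapa (adjusted p = 0.00141).

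Cxcl10, whose promoter window holds the NF-kB type and interferon-response type motifs shown above, was spread as widely in ND+veh as in HFD+veh. It ranged from 0.624 to 37.2 CPM in ND+veh (median 3.82), from 3.04 to 34.4 CPM in HFD+veh (median 14.5) and from 1.52 to 4.52 CPM in HFD+eRapa (median 2.59). The highest of all 24 libraries was ND+veh replicate 4. The diet difference of 0.78 ± 0.66 was not called (adjusted p = 0.390) and was 1.61 without ND+veh replicate 4 (adjusted p = 0.0506) and 0.40 without HFD+veh replicate 6 (adjusted p = 0.722). Cxcl10 fell by 2.52 ± 0.67 between HFD+veh and HFD+eRapa (adjusted p = 0.00675). Of the 9 members it had the smallest adjusted p between HFD+eRapa and ND+veh, with a difference of -1.73 ± 0.64 (adjusted p = 0.0766) that was -0.87 without ND+veh replicate 4 (adjusted p = 0.371). That difference was called in 2 of 17 fits that left out 1 library, those without ND+veh replicate 1 (-1.92, adjusted p = 0.0405) or replicate 2.

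Cxcl16, a membrane-bound ligand of Cxcr6 that is shed by Adam10, ranged from 1.59 to 14.3 CPM in ND+veh (median 5.11), from 2.73 to 46.8 CPM in HFD+veh (median 31.1) and from 0.788 to 8.55 CPM in HFD+eRapa (median 4.35). HFD+veh replicates 3, 4, 5 and 6 were at 31.1 CPM or above, higher than every mouse of the other groups, and replicates 1 and 2 were below the ND+veh median. Cxcl16 rose by 1.92 ± 0.56 with the diet (adjusted p = 0.0179) and fell by 2.43 ± 0.55 with eRapa (adjusted p = 0.00279). Without HFD+veh replicate 6 the rise was 1.59 with an adjusted p of 0.0614.

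Cxcl1 and Cxcl12 were the tested members with no call in any comparison. Cxcl1 (KC), a neutrophil attractant that binds Cxcr2, had medians of 5.81 CPM in ND+veh (2.55 to 18.7), 7.21 CPM in HFD+veh (5.35 to 33.1) and 12.7 CPM in HFD+eRapa (5.26 to 28.8). The eRapa median was the highest, and 8 of 9 eRapa mice were above the median of either other group. The difference was 0.85 ± 0.43 against ND+veh (adjusted p = 0.211) and 0.11 ± 0.44 against HFD+veh (adjusted p = 0.864), and between HFD+veh and ND+veh it was 0.74 ± 0.45 (adjusted p = 0.226).

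Cxcl12 (SDF-1), the ligand of Cxcr4 and of the scavenging receptor Ackr3, is made constitutively in liver. Its medians were 201 CPM in ND+veh (120 to 266), 167 CPM in HFD+veh (99.7 to 316) and 213 CPM in HFD+eRapa (129 to 243). The fitted differences were -0.06 ± 0.21, 0.09 ± 0.20 and 0.03 ± 0.19 for HFD+veh against ND+veh, HFD+eRapa against HFD+veh and HFD+eRapa against ND+veh (adjusted p = 0.859, 0.775 and 0.953), and each changed sign under some alternative analyses. The SEs of Cxcl12 were the smallest among the members.

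Cx3cl1 (fractalkine), the membrane-bound ligand of Cx3cr1, had medians of 3.5 counts in ND+veh, 3 in HFD+veh and 2 in HFD+eRapa. The highest values were 16 counts in ND+veh, 21 in HFD+veh and 5 in HFD+eRapa. With no filter on low counts its differences were 0.50, -1.18 and -0.68 in the same order of comparisons (adjusted p = 0.656, 0.236 and 0.598).

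**Figure D3:**
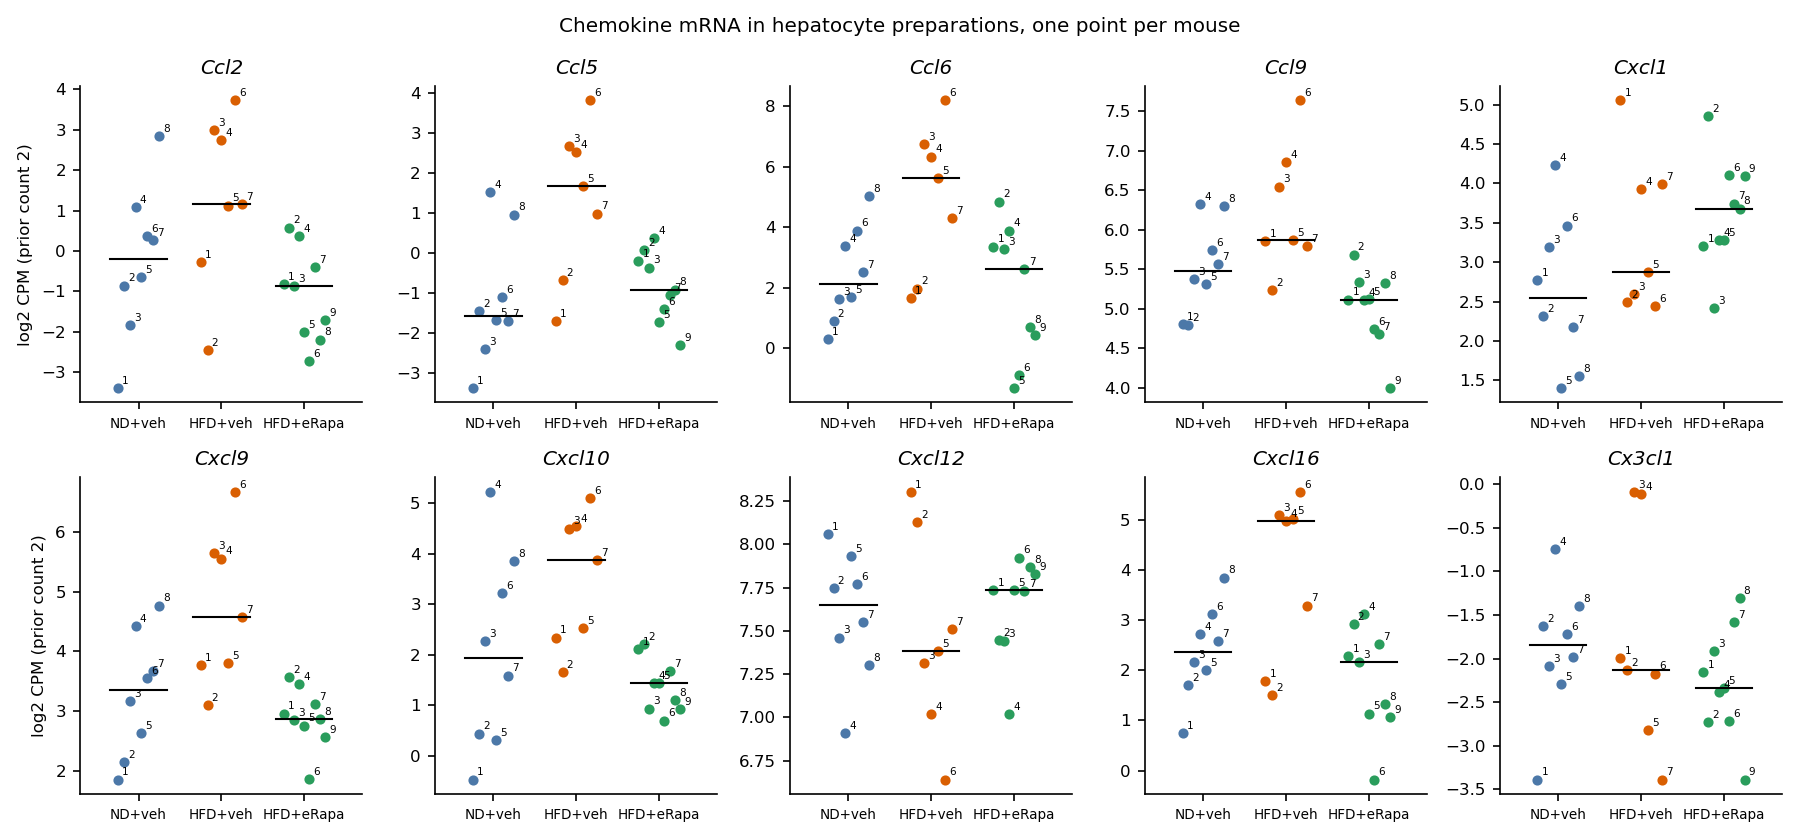
Log2 CPM (prior count of 2) of each chemokine in each mouse, with replicate numbers beside the points and black bars at the group medians; each panel has its own vertical scale. Replicate 6 is the highest HFD+veh mouse for Ccl2, Ccl5, Ccl6, Ccl9, Cxcl9, Cxcl10 and Cxcl16 and the lowest for Cxcl1 and Cxcl12.

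The HFD+veh mice did not move together. Replicates 3, 4 and 6 were the 3 highest of 7 for 6 members, Ccl2, Ccl5, Ccl6, Ccl9, Cxcl9 and Cxcl10, and replicates 3, 5 and 6 for Cxcl16. Replicates 1 and 2 were the lowest pair for Ccl2, Ccl5, Ccl6, Cxcl9, Cxcl10 and Cxcl16. For Cxcl12 the order from high to low was 1, 2, 7, 5, 3, 4, 6, and for Ccl6 it was 6, 3, 4, 5, 7, 2, 1, the reverse but for the places of replicates 3 and 4. Without replicate 6 alone, edgeR called 0 of 9 members for the diet, with 4 at an unadjusted p under 0.05. The count between HFD+eRapa and HFD+veh was then 6 of 9. The share of all genes called without replicate 6 is not given here, so this loss of calls may not be particular to the chemokines.

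Summed markers of the other cell types examined had their highest group median in HFD+veh, though not every marker followed the chemokines. The summed level of 12 macrophage markers (among them Adgre1, Clec4f, Cd5l and Csf1r) was 52.3 to 1568 CPM in ND+veh (median 297), 197 to 5880 CPM in HFD+veh (median 2957) and 19.4 to 1229 CPM in HFD+eRapa (median 236). All 12 were tested, and 4 rose with the diet and 10 fell with eRapa. Over all tested genes 16.0% were called higher with the diet and 21.1% lower with eRapa. The 12 T and NK cell markers were sparse, with 2 passing the filter, and summed to 0.698 to 9.80 CPM in ND+veh, 0.573 to 83.0 CPM in HFD+veh and 1.14 to 4.26 CPM in HFD+eRapa. Of those 2, Cd4 was flat, with means of 1.32, 1.26 and 1.31 CPM in the same order, and Il2rb had 0.478, 4.57 and 0.390 CPM. The 4 B cell markers summed to 0.057 to 3.03 CPM, 0.156 to 13.9 CPM and 0.056 to 1.45 CPM in the same order, and the 6 neutrophil markers to 0.113 to 6.58 CPM, 1.72 to 45.0 CPM and 0.056 to 11.0 CPM. The neutrophil marker Ly6g had 0 counts in all ND+veh and HFD+eRapa libraries and only 4 in HFD+veh, in 2 libraries, so it was near absent throughout.

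Of the other non-hepatocyte lists, 8 endothelial markers summed to 61.7 to 360 CPM in ND+veh, 95.6 to 608 CPM in HFD+veh and 52.7 to 283 CPM in HFD+eRapa. The 8 stellate cell markers summed to 26.4 to 219 CPM, 29.3 to 492 CPM and 18.0 to 85.4 CPM. All 8 markers of each of these lists fell with eRapa (21.1% of all tested genes), and 1 endothelial and 3 stellate markers rose with the diet (16.0%). Between HFD+eRapa and ND+veh, where 0 of 9 chemokines were called, 4 of the 8 stellate markers fell, with a median log2 fold change of -1.48. The 5 cholangiocyte markers stayed at or under 10.2 CPM in sum, and the 1 tested rose with the diet and was not called with eRapa. Replicates 3, 4 and 6 had the 3 highest T and NK cell, B cell, neutrophil, endothelial and stellate sums of HFD+veh, and replicates 3, 5 and 6 the 3 highest macrophage sums.

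**Figure D4:**
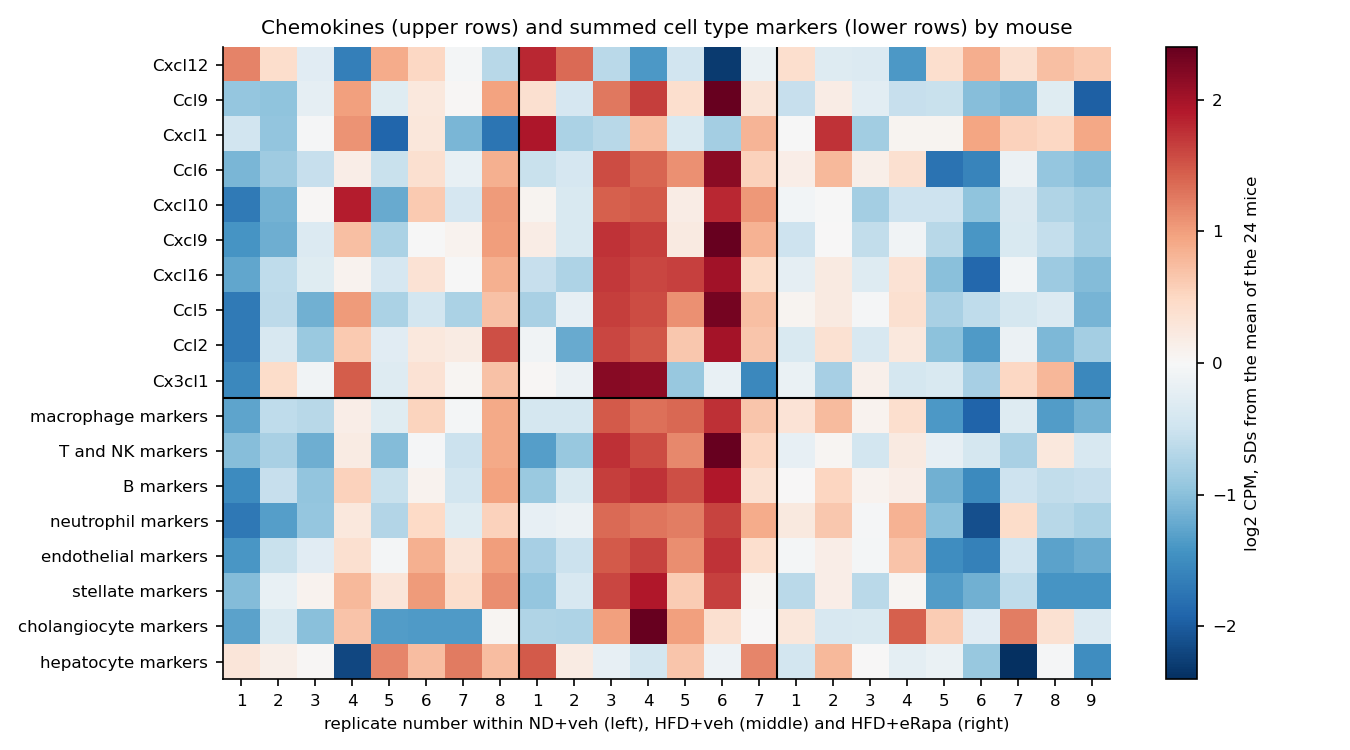
Chemokines (upper rows) and summed cell type markers (lower rows) in the 24 mice, each row as log2 CPM in SDs from its mean over all mice; the columns are replicates of ND+veh, HFD+veh and HFD+eRapa. The HFD+veh columns 3, 4 and 6 are red for most chemokines and immune marker rows, whereas the Cxcl12 row is blue there.

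When an immune marker score (the mean z score of macrophage, T and NK cell, B cell and neutrophil markers) was added to the fit, edgeR called 0 of 9 members between HFD+veh and ND+veh, with 0 at an unadjusted p under 0.05, and 0 of 9 between HFD+eRapa and HFD+veh, with 2 at an unadjusted p under 0.05. For Ccl6 the differences were then 0.05 ± 0.27 and 0.05 ± 0.26, and for Cxcl16 0.05 ± 0.21 and -0.29 ± 0.22. Between HFD+eRapa and HFD+veh the difference shrank to -0.77 ± 0.35 for Cxcl9 (adjusted p = 0.198), -0.77 ± 0.65 for Cxcl10 (adjusted p = 0.531) and -0.60 ± 0.26 for Ccl9 (adjusted p = 0.186). With a score of endothelial, stellate and cholangiocyte markers in its place, 3 members were called for the diet and 0 between HFD+eRapa and HFD+veh, where 1 had an unadjusted p under 0.05. The share of all genes called in these fits is not given here, so whether the loss of calls is particular to the chemokines was not tested. In these bulk samples fewer cells of a type and less RNA per cell cannot be told apart.

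The genes whose levels followed each member most closely over the 24 libraries were found by Spearman's rho of log2 CPM, as a description over libraries that share the group differences and cell type content given above. Ccl6 followed Ptprc (CD45), the common leukocyte antigen, at 0.993. For Cxcl16 the closest were Il10rb at 0.985 and Vim at 0.978, and for Ccl2 Pak1 and Il10rb, both at 0.96. Ccl5 was closest to Wdfy4 (0.92) and Epsti1 (0.91), Cxcl9 to Rgs1 (0.95) and Ly6a (0.93), and Ccl9 to Itm2c (0.91) and Ly6a (0.88). Cxcl10 was nearest to Gsta1 (0.91) and the interferon-induced Oas1g (0.90). Cxcl12 was closest to Scnn1a (0.94) and Ece1 (0.91), and Cxcl1, whose best partners were Slc39a11 (0.72) and Hist1h1d (0.69), had no gene as close as those of the other members.

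Receptors of the chemokines, which are carried mostly by leukocytes, were scarce. Of 18 signalling chemokine receptors examined, 6 passed the filter on low counts, Ccr1, Ccr2, Cxcr3, Cxcr4, Cx3cr1 and Xcr1. Each of them rose in HFD+veh against ND+veh (16.0% of all tested genes) and fell in HFD+eRapa against HFD+veh (21.1%). A gene this scarce passes mainly through the group in which it is high (Ccr1 had 15 counts in all ND+veh mice together), so these counts are a description and do not speak for the receptors left out. With no filter edgeR called 8 of the 18 higher with the diet and 10 lower with eRapa, and no receptor had at least 10 counts in every library. Without HFD+veh replicate 6, 3 of the 6 (Ccr1, Ccr2 and Cx3cr1) rose and 1 (Xcr1) fell, so 3 calls for the diet and 5 for eRapa were lost, and limma voom called 2 of the 6 higher with the diet and 1 lower with eRapa. With the immune marker score in the fit edgeR called 0 of the 6 in either, with 2 and 1 at an unadjusted p under 0.05. Between HFD+eRapa and ND+veh edgeR called 0 of the 6, with 0 at an unadjusted p under 0.05, as did DESeq2 and limma voom, with 2 and 0. With the immune marker score 3 of the 6 were called higher there, with 4 at an unadjusted p under 0.05. With the score of endothelial, stellate and cholangiocyte markers 5 rose with the diet and 0 fell with eRapa. That fit called 4 higher against ND+veh. The share of all genes called in these alternative fits is not given here. Ccr2, the receptor of Ccl2, had medians of 0.347 CPM in ND+veh, 7.86 CPM in HFD+veh and 2.53 CPM in HFD+eRapa, and rose by 4.96 ± 1.13 with the diet (adjusted p = 0.00430) and fell by 3.24 ± 0.98 with eRapa (adjusted p = 0.0151). In HFD+veh replicate 6 held 3186 of the 4847 Ccr2 counts of the group, and without it the differences were 3.60 (adjusted p = 0.0216) and -1.85 (adjusted p = 0.148).

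Ccr1, which binds Ccl5, Ccl6 and Ccl9, had 15 counts over all ND+veh mice, 562 in HFD+veh and 75 in HFD+eRapa. It rose by 5.26 ± 1.13 (adjusted p = 0.00286) and fell by 3.01 ± 0.93 (adjusted p = 0.0161). Cxcr3, the receptor of Cxcl9 and Cxcl10, rose by 2.32 ± 0.86, just past the threshold (adjusted p = 0.050 after rounding), and fell by 2.77 ± 0.86 (adjusted p = 0.0173), with at most 64 counts in any library. With HFD+veh replicate 6 left out the difference with eRapa was -1.58 for Ccr1 (adjusted p = 0.177) and -2.43 for Cxcr3 (adjusted p = 0.0520). The rise of Cxcr3 was lost in 10 of 13 fits that left out 1 library.

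Cxcr4 rose by 3.22 ± 1.01 with the diet (adjusted p = 0.0244) and fell by 2.97 ± 0.96 with eRapa (adjusted p = 0.0213), whereas its ligand Cxcl12 was called in neither comparison. Cx3cr1 rose by 3.92 ± 0.95 (adjusted p = 0.00603) and fell by 2.25 ± 0.84 (adjusted p = 0.0430) beside a ligand, Cx3cl1, that was too low to test. Xcr1, a receptor of cross-presenting dendritic cells, rose by 2.67 ± 0.71 (adjusted p = 0.0105) and fell by 3.41 ± 0.71 (adjusted p = 0.00155). Leaving out HFD+veh replicate 6, the differences of Cxcr4 were 2.23 (adjusted p = 0.115) and -1.97 (adjusted p = 0.128). Those of Cx3cr1 with eRapa and of Xcr1 with the diet were then -1.45 (adjusted p = 0.212) and 1.86 (adjusted p = 0.0578). The call of Cx3cr1 with eRapa was lost in 10 of 16 such fits.

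**Figure D5:**
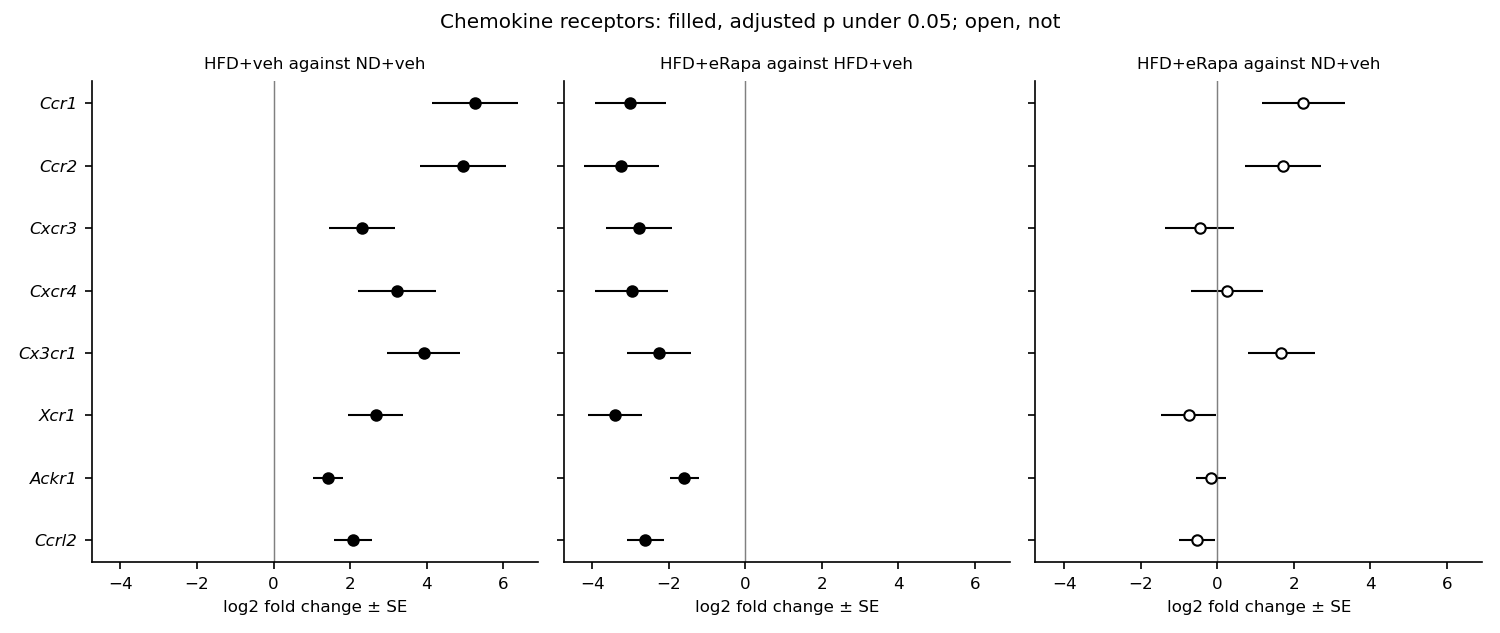
Log2 fold change with its SE from edgeR for 6 signalling receptors and for Ackr1 and Ccrl2 in each comparison; filled points have an adjusted p under 0.05. The 8 shown are right of 0 for HFD+veh against ND+veh and left of 0 for HFD+eRapa against HFD+veh. All are open for HFD+eRapa against ND+veh. Ackr2 and Ackr4 also passed the filter but were called in no comparison and are not shown.

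Other receptors of the members did not pass the filter. Cxcr2, the receptor of Cxcl1, had 14, 123 and 51 counts in total in ND+veh, HFD+veh and HFD+eRapa, and Cxcr6, the receptor of Cxcl16, had 27, 332 and 30. Ccr3, which binds Ccl5, had 597, 271 and 20 counts, and 566 of the 597 were in ND+veh replicate 8. Ackr3, the scavenging receptor of Cxcl12, had 17, 106 and 33 counts. Of the 5 atypical receptors, which bind chemokines without G protein signalling, 4 were tested. With the diet 2 rose (16.0% of all tested genes were called higher), and with eRapa 2 fell (21.1% were called lower). Ackr2 and Ackr4 were called in neither. Their means in ND+veh, HFD+veh and HFD+eRapa were 2.58, 2.58 and 2.39 CPM and 1.12, 1.30 and 1.07 CPM. Ackr1 was scarce, with at most 36 counts in any library. Ackr1 rose by 1.43 ± 0.39 (adjusted p = 0.0128) and fell by 1.59 ± 0.39 (adjusted p = 0.00399), and Ccrl2 rose by 2.09 ± 0.50 (adjusted p = 0.00539) and fell by 2.62 ± 0.49 (adjusted p = 0.000630).

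Among 31 other chemokine ligands 12 were tested. With the diet 3 rose (Ccl4, Ccl22 and Cxcl2) and 1 fell (Ccl25), beside 16.0% of all tested genes called higher and 9.86% lower. With eRapa 5 fell (Ccl3, Ccl4, Cxcl13, Pf4 and Ppbp) and 0 rose, beside 21.1% of all tested genes called lower and 10.9% higher. With the immune marker score in the fit 0 of the 12 ligands rose and 1 fell with the diet, and 1 fell with eRapa. Cxcl2 and Cxcl13 lay outside the naming rule and are named because these counts are small. Ccl4, an attractant of monocytes and T cells, rose by 2.59 ± 0.88 (adjusted p = 0.0335) and fell by 4.17 ± 0.94 (adjusted p = 0.00254), and Ccl3 fell by 3.49 ± 0.88 (adjusted p = 0.00516). The platelet chemokines Pf4 and Ppbp fell by 4.17 ± 1.20 and 3.36 ± 1.01 (adjusted p = 0.0114 and 0.0145). Ccl22, a chemokine of dendritic cells and macrophages, rose by 3.35 ± 0.88 (adjusted p = 0.0101) and was at -1.97 ± 0.78 with eRapa (adjusted p = 0.0569). Summed over mice, Ccl3 had 95, 409 and 38 counts in ND+veh, HFD+veh and HFD+eRapa. Ccl4 had 79, 435 and 25, and Ccl22 had 22, 194 and 54. Ligands this scarce pass the filter mainly through HFD+veh, so these calls are a description and do not speak for the ligands left out. Ccl25 fell by 0.75 ± 0.17 with the diet (adjusted p = 0.00367), unlike the members. When HFD+veh replicate 6 was left out, 1 rose (Ccl22) and 1 fell (Ccl25) with the diet and 3 fell with eRapa, and the calls of Ccl4 with the diet (1.98, adjusted p = 0.119) and of Ppbp with eRapa (-2.77, adjusted p = 0.0531) were lost. Ccl4 lost its diet call in 8 of 15 fits that left out 1 library. In HFD+eRapa against ND+veh edgeR called 0 of the 12, with 2 at an unadjusted p under 0.05, DESeq2 called 1 and limma voom 0. With the immune marker score edgeR called 1 higher and 1 lower there. The share of all genes called in these alternative fits is not given here. Ccl19, Ccl21a, Ccl21b, Ccl21c and Ccl27a each have more than 1 identifier in the tables, and the first was used, so their counts are uncertain.

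Of 6 listed enzymes that shed or trim chemokines, 5 were tested. With the diet 3 rose (16.0% of all tested genes were called higher), and with eRapa 4 fell (21.1% were called lower). Adam10, the sheddase of Cxcl16 and Cx3cl1, rose by 1.40 ± 0.32 (adjusted p = 0.00490) and fell by 1.30 ± 0.31 (adjusted p = 0.00398), and Adam17 rose by 1.18 ± 0.31 (adjusted p = 0.0104) and fell by 1.27 ± 0.30 (adjusted p = 0.00356). The macrophage elastase Mmp12 rose by 5.52 ± 1.15 (adjusted p = 0.00237) and fell by 4.24 ± 1.02 (adjusted p = 0.00410). Dpp4, which clips the amino terminus of Cxcl9, Cxcl10 and Cxcl12, fell by 0.41 ± 0.13 with eRapa (adjusted p = 0.0191), and its diet difference of 0.26 ± 0.13 was not called (adjusted p = 0.155). After HFD+veh replicate 6 was left out, Adam10 was at 0.81 (adjusted p = 0.0205) and -0.72 (adjusted p = 0.0237), Mmp12 at 4.26 and -2.95 (adjusted p = 0.00913 and 0.0274), and Adam17 at -0.72 with eRapa (adjusted p = 0.0200). The rise of Adam17 (0.62, adjusted p = 0.0583) and the fall of Dpp4 (-0.26, adjusted p = 0.128) were then not called.

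Cytokines that induce chemokines were mostly below the filter: 2 of 10 were tested. Il1a rose by 2.19 ± 0.66 with the diet (adjusted p = 0.0196) and fell by 2.52 ± 0.64 with eRapa (adjusted p = 0.00532), and Il1b rose by 2.49 ± 0.82 (adjusted p = 0.0304) and fell by 2.44 ± 0.79 (adjusted p = 0.0212). Without HFD+veh replicate 6 the diet differences were 1.62 for Il1a (adjusted p = 0.0832) and 2.14 for Il1b (adjusted p = 0.0846), and Il1b was at -2.08 with eRapa (adjusted p = 0.0664). The diet call of Il1b was lost in 9 of 15 fits that left out 1 library. All 10 listed transcription factors were tested. With the diet 5 rose and 2 fell, with eRapa 7 fell and 1 rose, and between HFD+eRapa and ND+veh 2 fell (Irf1 and Nfkb2, the latter named for the small count). Over all tested genes 16.0% rose and 9.86% fell with the diet, 21.1% fell and 10.9% rose with eRapa, and 6.56% fell against ND+veh. With HFD+veh replicate 6 left out, 2 of the listed factors rose and 2 fell with the diet and 5 fell and 1 rose with eRapa. The counts were the same with limma voom, which called 0 against ND+veh. With the immune marker score in the fit edgeR called 0 for the diet, with 5 at an unadjusted p under 0.05. It called 1 lower with eRapa. The share of all genes called in these alternative fits is not given here.

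Irf1, an interferon-induced factor, rose by 0.54 ± 0.14 with the diet (adjusted p = 0.0114) and fell by 0.94 ± 0.14 with eRapa (adjusted p = 8.28e-05), with no overlap between the HFD+eRapa and HFD+veh mice, and it was the named factor that also fell against ND+veh (by 0.41 ± 0.14, adjusted p = 0.0487), a call lost in 14 of the 17 fits that left out 1 library. Irf7 rose by 1.73 ± 0.54 (adjusted p = 0.0235) and fell by 2.30 ± 0.53 (adjusted p = 0.00290), also with no overlap between the HFD+eRapa and HFD+veh mice. The share of all tested genes without such overlap is not given here. Irf8, a factor of macrophages and dendritic cells, rose by 2.08 ± 0.66 (adjusted p = 0.0251) and fell by 2.72 ± 0.65 (adjusted p = 0.00379). Of the NF-kB family, Rel rose by 0.97 ± 0.31 (adjusted p = 0.0265) and fell by 1.30 ± 0.30 (adjusted p = 0.00313), and Nfkb1 fell by 0.58 ± 0.15 with eRapa (adjusted p = 0.00588) without a call for the diet (0.30 ± 0.15, adjusted p = 0.153). The family did not move as a whole. Mean levels in ND+veh, HFD+veh and HFD+eRapa were 51.8, 37.7 and 44.6 CPM for Rela, lowest in HFD+veh. They were 13.1, 12.4 and 7.28 CPM for Nfkb2 and 4.67, 5.47 and 1.61 CPM for Relb. Cebpb had the opposite pattern: it fell by 0.79 ± 0.25 with the diet (adjusted p = 0.0254) and rose by 0.97 ± 0.25 with eRapa (adjusted p = 0.00558). The rises of Rel (0.51, adjusted p = 0.175) and Irf8 (1.82, adjusted p = 0.070) were not called without HFD+veh replicate 6.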

How the data were processed

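Groups and replicate numbers came from the sample labels, and all 24 libraries carry the same batch label. The authors aligned reads with STAR to mm10 (Gencode M23 annotation), filtered them with SAMtools 1.1.0 and counted reads per gene with HTSeq 0.11.2, and the deposited counts are raw whole numbers. The deposited FPKM values (fragments per kilobase per M mapped fragments) were made by the authors with Cufflinks. No molecular identifiers were used. Totals ran from 17.7 to 25.9 M. Libraries of a group differed by a chi-square of 11.3 or more per degree of freedom, beyond sampling noise.

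Counts were tested with edgeR 4.0.16 in R 4.3.3: filterByExpr with the groups, TMM scaling (factors 0.848 to 1.29), robust quasi-likelihood fit of all 24 libraries, Benjamini-Hochberg adjustment over 13847 genes, called at an adjusted p under 0.05. SE was taken as the size of the log2 fold change over the root of the F statistic. CPM uses TMM-scaled totals. The fits were tested on simulated counts. The members, lists and tests were chosen with earlier results of these data known. Named genes were the 10 members, their receptors, and called genes of each list (up to 6 by the smallest p), with the 2 genes closest to each member among 11177 candidates; some genes are not reported here. Alternatives were DESeq2 1.42.0, limma 3.58.1 voom, other scaling and filters, 2-group fits, a replicate block, marker scores as covariates, FPKM tests and removal of libraries.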

Additional observations from a re-analysis of the deposited data

How the results depend on the processing

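The counts of chemokines called (of 9 tested, 4 in HFD+veh against ND+veh, 7 in HFD+eRapa against HFD+veh and 0 in HFD+eRapa against ND+veh) depended on the processing, above all for the diet. The diet count was 1 with limma voom, 2 in a fit of only the groups compared, 1 and 2 with limma on log2(FPKM + 0.1) and log2(FPKM + 1), 0 on log2(FPKM + 0.1) with no filter, and 1 without ND+veh replicate 4 and HFD+veh replicate 6. The eRapa count was 4 of 6 members left with at least 10 counts in every library. The main fit also called 4 of those 6 (Ccl9, Cxcl9, Cxcl10 and Cxcl16), and Ccl2, Ccl5 and Ccl6 were removed by that filter. The eRapa count was 3 on log2(FPKM + 0.1) with no filter. DESeq2 called 1 member (Cxcl10) in HFD+eRapa against ND+veh. With 1 library left out, the counts ran from 0 (without HFD+veh replicate 6) to 6, from 6 to 7, and from 0 to 1. Replicate numbers belong to different mice. Same-numbered libraries were not correlated throughout (deviations correlated over 0.1 in 5 of 7, 2 of 7 and 2 of 8 pairs, and 2, 0 and 0 matched best with their own number). In HFD+veh against ND+veh the correlations ran from -0.38 to 0.76. Whether same-numbered mice were handled together cannot be told from these values, and the main fit did not pair them. With the replicate number as a block 2 members were called in each of the first 2 comparisons. Depth limits Cx3cl1, Ccl2 and Ccl5 most. The share of all genes called under each alternative is not given here, so these changes may not be particular to the chemokines. The causes of these changes were not tested beyond the alternatives named.

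Signs changed as follows (log2 fold changes). In HFD+eRapa against ND+veh, Ccl5 was 0.41 with limma voom, 0.66 with the replicate block, 0.51 on log2(FPKM + 0.1) with or without the filter, 0.070 on log2(FPKM + 1), 0.36 without ND+veh replicate 4 and 0.39 without both libraries named above. Ccl6 was 0.75 with the block and -0.71 to 0.51 with 1 library left out. Cxcl12 was -0.092 on log2(FPKM + 0.1) with or without the filter, -0.091 on log2(FPKM + 1), -0.046 without both libraries, -0.027 on total counts with no TMM (chosen after seeing the data), and -0.069 to 0.092 with 1 library left out. With 1 library left out Ccl5 ran from -0.63 to 0.36 there. In HFD+eRapa against HFD+veh, leaving out 1 library gave -0.10 to 0.57 for Cxcl1 and -0.016 to 0.26 for Cxcl12, and removing both gave -0.0048 for Cxcl12. In HFD+veh against ND+veh, Cxcl12 ran from -0.23 to 0.028.

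The immune marker score as covariate left 0 members called in each comparison. For the diet the sign changed for Ccl2 (-0.66), Cxcl10 (-0.38), Cxcl12 (0.26), Ccl4 (-0.21), Cxcr3 (-1.005) and Il1b (-0.12). For HFD+eRapa against HFD+veh it changed for Ccl6 (0.055), Cxcl1 (-0.051), Cxcl12 (-0.32), Ccr1 (1.09), Ccr2 (0.93), Cx3cr1 (0.99), Cxcr3 (0.72), Cxcr4 (0.68) and Il1b (0.24), and in HFD+eRapa against ND+veh for Ccl5 (0.083), Ccl6 (0.10) and Cxcl12 (-0.052). The score of endothelial, stellate and cholangiocyte markers left 3, 0 and 1 members called, the last being Ccl6. Signs then changed for Cxcl12 for the diet (0.12). In HFD+eRapa against HFD+veh they changed for Ccl5 (0.077), Ccl6 (0.41), Cxcl1 (-0.080), Cxcl12 (-0.40), Pf4 (0.14), Ccr1 (1.26), Ccr2 (1.44), Cx3cr1 (1.71), Cxcr3 (1.20), Cxcr4 (1.02), Mmp12 (0.41) and Il1b (0.35). In HFD+eRapa against ND+veh they changed for Ccl2 (0.33), Ccl5 (1.35), Ccl6 (1.77), Cxcl9 (0.32), Cxcl12 (-0.28) and Cxcl16 (0.57).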
